A study of Homo sapiens with 15 samples.

Results

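The miRNAs described here were a set of endothelial and mesenchymal miRNAs measured in U87-MG cells: hsa-miR-126-3p, hsa-miR-126-5p, hsa-miR-143-3p, hsa-miR-145-5p, hsa-miR-145-3p, hsa-miR-199a-3p, hsa-miR-199a-5p, hsa-miR-199b-5p and hsa-miR-214-3p, written below without the species prefix. These 9 were chosen because earlier results from the same libraries had shown that they part libraries of the same group, so the spread within groups is given below as a description, without a test. Counts were analysed for 8 of the 9, out of 1707 mature miRNAs in the tables, and all 8 were among the 562 miRNAs that passed the filter on low counts. miR-214-3p was not analysed here.

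U87-MG is an established human glioblastoma cell line. Control cells, cells without HIF1α (HIF1α-KO), without HIF2α (HIF2α-KO) or without both (HIF1α/HIF2α-KO) were kept for 24 h in 1% O2 (hypoxia), and control cells also for 24 h in 21% O2 (normoxia), with 3 libraries in each of the 5 groups. Control cells are labelled as wild type, and the knockout cells were made with CRISPR/Cas9 and guides carried by a lentivirus. All groups grew in DMEM with 10% fetal bovine serum. Whether the knockout lines were single clones, and whether the libraries of a group came from separate cultures, is not given in the sources used here, so the p-values measure only the spread between these libraries, which may be technical. The assay does not read the mRNAs of the targeted genes. miR-210-3p, a miRNA induced through HIF1α, was lower in HIF1α-KO than in hypoxic control cells by a log2 fold change of -1.76 (SE 0.31, adjusted p = 0.0126, edgeR). It was not higher in hypoxic than in normoxic control cells, at 1056 ± 129 and 1162 ± 150.0 CPM (log2 fold change -0.19, SE 0.30, adjusted p = 0.841, edgeR), so its level does not check the oxygen labels. Library totals ranged from 10360337 to 22496373 counts. Levels below are in CPM, counts scaled to the library total, and the detection floor of 3 counts was at most 0.290 CPM. Counting intervals and this floor cover counting error only.

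A miRNA is cut from a hairpin whose arms give a 5p and a 3p product, and it pairs with target mRNAs mainly through its seed, bases 2 to 8. miR-126 is abundant in endothelial cells and lies within EGFL7, a gene of the endothelium. miR-143 and miR-145 are abundant in smooth muscle and other mesenchymal cells and come from neighbouring hairpins, and miR-199a and miR-214 come from a shared transcript, DNM3OS, that is expressed in mesenchymal cells. In profiles of tumour tissue these miRNAs are commonly read as marks of vessels and stroma.

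The mature sequences are shown because they set which members can be told apart by their reads. They are from RefSeq on GRCh38.p14, which held 7 of the members analysed, and capitals mark the seed.
miR-126-3p: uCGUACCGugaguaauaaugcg
miR-126-5p: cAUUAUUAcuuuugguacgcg
miR-143-3p: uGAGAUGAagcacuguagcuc
miR-145-5p: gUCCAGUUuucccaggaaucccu
miR-145-3p: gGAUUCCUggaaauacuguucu
miR-199a-3p: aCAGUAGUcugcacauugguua
miR-199a-5p: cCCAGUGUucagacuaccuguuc
miR-199b-3p: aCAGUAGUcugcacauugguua
No seed was shared between these 7 members. The sequence of miR-199b-5p, the remaining member analysed, was not held there, so its seed was not compared with theirs. miR-199b-3p, which is not a member, has the same sequence as miR-199a-3p over its whole length, so reads cannot be assigned to either of them.

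The hairpins lie in 5 regions of the genome, by GENCODE on GRCh38. MIR126 (chr9:136670602-136670686, plus strand) is in an intron of EGFL7 and overlaps no exon of it. MIR143 (chr5:149428918-149429023) overlaps an exon of the long noncoding RNA gene CARMN, and MIR145 (chr5:149430646-149430733) lies in the same gene outside its exons. Both are on the plus strand, as is CARMN. miR-199a is made from 2 hairpins. MIR199A2 (chr1:172144535-172144644, minus strand) lies in exons of DNM3OS, which runs against DNM3, and MIR199A1 (chr19:10817426-10817496, minus strand) runs against an intron of DNM2. MIR199B (chr9:128244721-128244830, minus strand) runs against an intron of DNM1. The members that moved most closely together are thus encoded on 3 chromosomes.

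miR-126-3p parted the hypoxic control libraries widely. Its level was 51.0, 4.31 and 4.94 CPM in hypoxic control replicates 1, 2 and 3, from 542, 97 and 69 counts. The exact Poisson intervals (95%) were 46.8 to 55.5 CPM in replicate 1, 3.497 to 5.26 CPM in replicate 2 and 3.85 to 6.26 CPM in replicate 3. Replicate 1 thus lay 11.8-fold above the lowest library of its own group, far outside counting error, whereas replicates 2 and 3 could not be told apart by their counts. In HIF1α-KO cells the level was 6.75, 3.83 and 35.6 CPM in replicates 1 to 3, with replicate 3 high. In HIF2α-KO cells it was 32.9, 3.90 and 20.6 CPM, with replicate 2 low. In HIF1α/HIF2α-KO cells it was 14.3, 16.9 and 6.77 CPM, with replicate 3 low. Normoxic control libraries, at 17.6, 27.7 and 36.0 CPM, were all above 15 CPM and differed 2.05-fold, the narrowest of the 5 groups. The group means ± SD were 27.1 ± 9.23 CPM in normoxic control, 20.1 ± 26.8 in hypoxic control, 19.1 ± 14.6 in HIF2α-KO, 15.4 ± 17.6 in HIF1α-KO and 12.6 ± 5.24 in HIF1α/HIF2α-KO cells (n = 3 each). Each mean differed from the next in this order by less than the larger SD of the pair.

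miR-126-5p, the other arm of the hairpin, had between 0 and 16 counts in a library and was at 0 in 2 libraries, hypoxic control replicate 3 and HIF2α-KO replicate 2, where 3 counts would have been 0.215 and 0.260 CPM. Only 2 libraries reached 10 counts, normoxic control replicate 3 (16 counts) and HIF2α-KO replicate 1 (13 counts). Over the 15 libraries the 3p arm had 3631 counts and the 5p arm 73, a ratio of 49.7. In 4 of the 5 groups the library with the most miR-126-3p also had the most miR-126-5p, as CPM. In HIF1α-KO cells, 1 of these groups, the counts of miR-126-5p were 1, 3 and 3 in replicates 1 to 3, so its order there is within counting error.

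**Figure D1:**
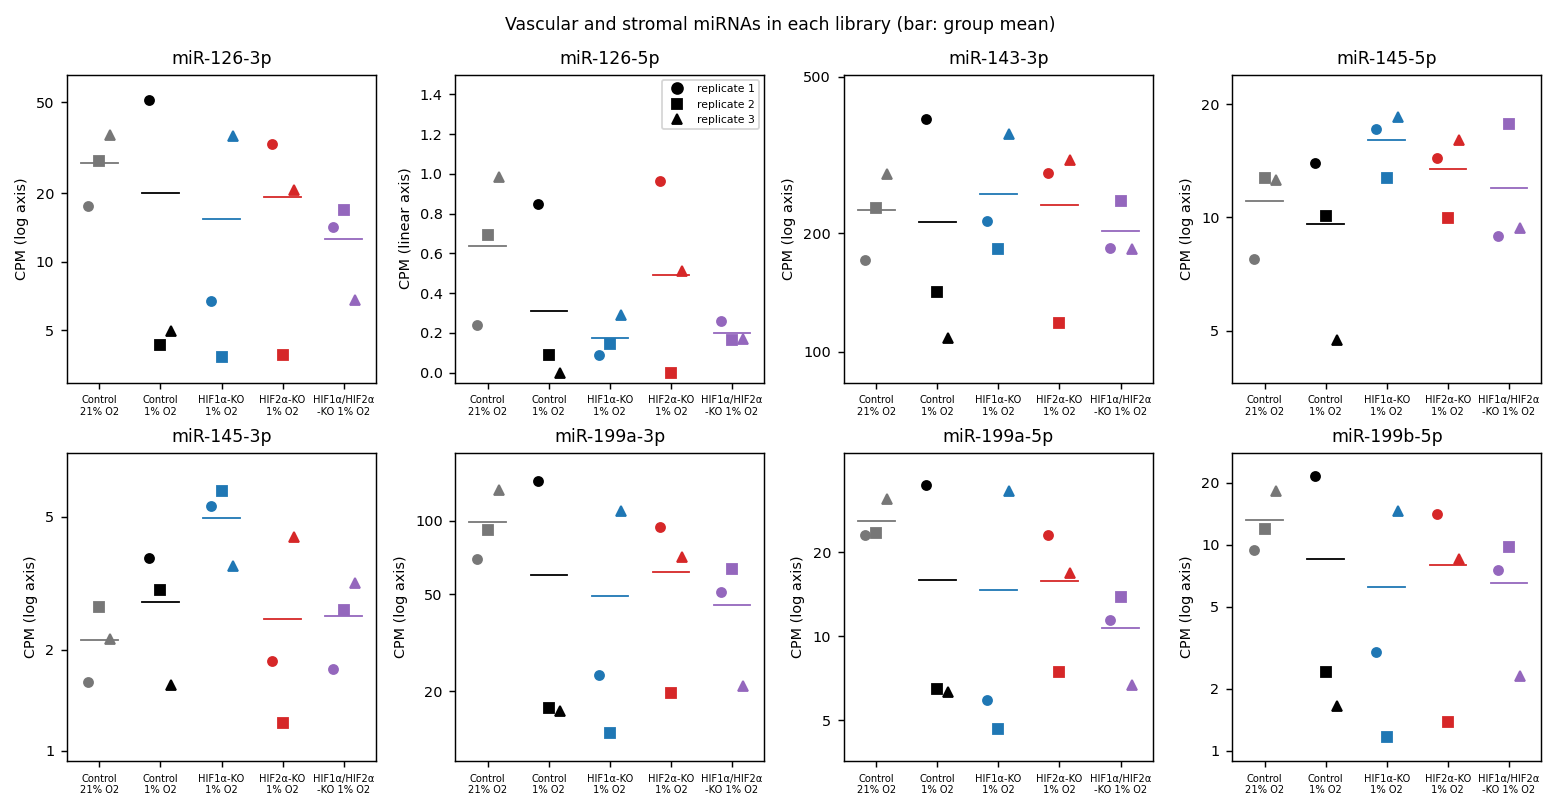
Level of each of the 8 members analysed (CPM, log axes, except miR-126-5p on a linear axis) in every library, by group, with 1 symbol per replicate and a bar at the group mean. For miR-126-3p and the miR-199 members, hypoxic control replicate 1 and HIF1α-KO replicate 3 lie well above the other libraries of their groups, while the libraries of HIF1α-KO cells all lie above 3.5 CPM for miR-145-3p.

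The miR-199 members followed the same libraries as miR-126-3p. miR-199a-3p stood at 147, 17.1 and 16.6 CPM in hypoxic control replicates 1 to 3 and at 23.4, 13.5 and 110 CPM in those of HIF1α-KO cells. It stood at 94.1, 19.6 and 71.1 CPM in HIF2α-KO, at 51.3, 63.4 and 21.1 CPM in HIF1α/HIF2α-KO and at 70.0, 92.2 and 134 CPM in normoxic control cells. The ratio of the highest to the lowest library within a group was 8.81 in hypoxic control, 8.19 in HIF1α-KO, 4.80 in HIF2α-KO, 3.00 in HIF1α/HIF2α-KO and 1.91 in normoxic control cells. The high and low libraries were those of miR-126-3p, except that the lowest hypoxic control library was replicate 3 and not replicate 2.

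miR-199a-5p, the other arm, ranged from 4.65 to 34.8 CPM, with 34.8, 6.49 and 6.31 CPM in hypoxic control replicates 1 to 3 and 5.88, 4.65 and 33.2 CPM in HIF1α-KO replicates. In HIF2α-KO cells it was 23.03, 7.46 and 16.9 CPM, and in HIF1α/HIF2α-KO cells 11.5, 13.8 and 6.69 CPM. Normoxic control libraries had 22.9, 23.3 and 31.0 CPM. The 3p arm exceeded the 5p arm in every library, by a ratio between 2.63 and 4.58, so both arms were high in the same libraries. The 3p count can also hold reads from the hairpin of miR-199b, so this ratio is not that of the miR-199a arms alone.

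miR-199b-5p had the widest range of the members, from 1.16 CPM in HIF1α-KO replicate 2 (24 counts) to 21.5 CPM in hypoxic control replicate 1 (228 counts), an 18.5-fold range. Hypoxic control replicates 2 and 3 were at 2.40 and 1.65 CPM, and HIF1α-KO replicates 1 and 3 at 3.03 and 14.6 CPM. HIF2α-KO libraries were at 14.04, 1.39 and 8.53 CPM, HIF1α/HIF2α-KO libraries at 7.55, 9.79 and 2.32 CPM, and normoxic control libraries at 9.46, 11.98 and 18.3 CPM. The same libraries were therefore high and low for another hairpin, on a different chromosome from the hairpins of miR-199a.

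The group means of the miR-199 members had normoxic control cells highest, and the other 4 groups lay close together beside their SDs. For miR-199a-3p the means ± SD were 98.7 ± 32.4 CPM in normoxic control, 61.6 ± 38.1 in HIF2α-KO, 60.1 ± 74.9 in hypoxic control, 49.0 ± 53.2 in HIF1α-KO and 45.2 ± 21.8 in HIF1α/HIF2α-KO cells. For miR-199a-5p they were 25.8 ± 4.55, 15.8 ± 7.84, 15.9 ± 16.4, 14.6 ± 16.1 and 10.7 ± 3.63 CPM in the same order of groups. For miR-199b-5p they were 13.2 ± 4.54, 7.99 ± 6.34, 8.51 ± 11.2, 6.25 ± 7.27 and 6.55 ± 3.84 CPM. The step from normoxic control to the group below it was larger than the smaller SD of the pair for each of these members, as was the step from HIF1α-KO to HIF1α/HIF2α-KO cells for miR-199a-5p, and the other steps were smaller than both SDs.

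The counts of miR-199a carry a feature of how reads were counted. The count of miR-199a-3p was exactly 2 times that of miR-199b-3p in 15 of 15 libraries, and the count of miR-199a-5p was an even number in 15 of 15, against 8 of 15 for miR-199b-5p. Among miRNAs with at least 100 counts in all, 7 of 36 with 2 hairpins in RefSeq had even counts in every library, against 1 of 484 with 1 hairpin. Levels of miR-199a-3p and miR-199a-5p are therefore given as deposited, but their counts can hold each read once per hairpin. Whether they do was not tested, and the ratios between libraries are the same with the counts halved.

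miR-143-3p was the most abundant member, with 1366 to 4608 counts in a library, and it parted the libraries less. It stood at 389, 142 and 109 CPM in hypoxic control replicates 1 to 3, at 215, 182 and 358 CPM in HIF1α-KO and at 285, 118 and 307 CPM in HIF2α-KO cells. HIF1α/HIF2α-KO libraries had 183, 241 and 183 CPM and normoxic control libraries 171, 232 and 283 CPM. Hypoxic control replicate 1 and HIF1α-KO replicate 3 were again highest in their groups, but the ratio of the highest to the lowest library was at most 3.58 (hypoxic control) and as low as 1.32 (HIF1α/HIF2α-KO). The group means ± SD were 252 ± 93.6 CPM in HIF1α-KO, 237 ± 103 in HIF2α-KO, 229 ± 56.2 in normoxic control, 213 ± 153 in hypoxic control and 202 ± 33.6 in HIF1α/HIF2α-KO cells, and no neighbours in this order differed by as much as either SD.

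miR-145-5p, from the neighbouring hairpin, had 13.9, 10.1 and 4.73 CPM in hypoxic control replicates 1 to 3 and 17.1, 12.7 and 18.4 CPM in HIF1α-KO cells. It had 14.4, 9.97 and 16.0 CPM in HIF2α-KO, 8.92, 17.7 and 9.35 CPM in HIF1α/HIF2α-KO and 7.77, 12.7 and 12.5 CPM in normoxic control cells. Within groups the libraries differed 1.45-fold to 2.95-fold. HIF1α-KO replicates 1 and 3, at 6.75 and 35.6 CPM of miR-126-3p, stood side by side here. The means ± SD were 16.1 ± 2.99 CPM in HIF1α-KO, 13.5 ± 3.14 in HIF2α-KO, 11.98 ± 4.95 in HIF1α/HIF2α-KO, 11.02 ± 2.82 in normoxic control and 9.59 ± 4.62 in hypoxic control cells, and each step in this order was smaller than both SDs. The ends of the order, HIF1α-KO and hypoxic control cells, differed by more than either SD. Their libraries overlapped, and the exact permutation test between them gave p = 0.2 (two-sided, smallest possible value 0.1). The ratio of miR-143-3p to miR-145-5p counts ranged from 11.9 in HIF2α-KO replicate 2 to 27.9 in hypoxic control replicate 1, so the pair of neighbours did not keep a fixed ratio.

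miR-145-3p went its own way. HIF1α-KO libraries had 5.36, 5.96 and 3.57 CPM, and there replicate 3, the highest library for miR-126-3p, was the lowest. Hypoxic control libraries had 3.77, 3.02 and 1.58 CPM and HIF2α-KO libraries 1.86, 1.21 and 4.35 CPM. HIF1α/HIF2α-KO libraries had 1.76, 2.63 and 3.17 CPM and normoxic control libraries 1.60, 2.69 and 2.15 CPM. The ratio of miR-145-5p to miR-145-3p counts ranged from 2.14 in HIF1α-KO replicate 2 to 8.21 in HIF2α-KO replicate 2, a 3.84-fold range between arms of the same hairpin, against 1.74-fold for the arms of miR-199a. With 14 to 123 counts of miR-145-3p per library, this ratio carries more counting error than that of miR-199a. The 3p count of miR-199a can also hold reads from the hairpin of miR-199b, so the ranges do not compare like pairs. The mean of miR-145-3p was 4.96 ± 1.24 CPM in HIF1α-KO cells, above the 2.79 ± 1.11 CPM of hypoxic control cells by more than either SD. However, the libraries of the groups overlapped, and the exact permutation test gave p = 0.2 (two-sided, smallest possible value 0.1).

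Set against miR-126-3p, miR-199a-3p and miR-199b-5p kept a near-constant ratio to it, and miR-143-3p did not. The count of miR-199a-3p was 2.86 to 5.02 times that of miR-126-3p, a 1.76-fold range, while miR-126-3p itself spanned 13.3-fold in CPM. For miR-199b-5p the ratio was 0.304 to 0.580, a 1.91-fold range. For miR-143-3p it was 7.63 in hypoxic control replicate 1 and 47.7 in HIF1α-KO replicate 2, a 6.25-fold range. Libraries low in miR-126-3p were thus less low in miR-143-3p. For miR-199a-5p the ratio to miR-126-3p was not taken. Its count was 1.41 to 5.38 times that of miR-199b-5p, a 3.81-fold range, so the miR-199 members did not all keep a near-constant ratio to each other.

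**Figure D2:**
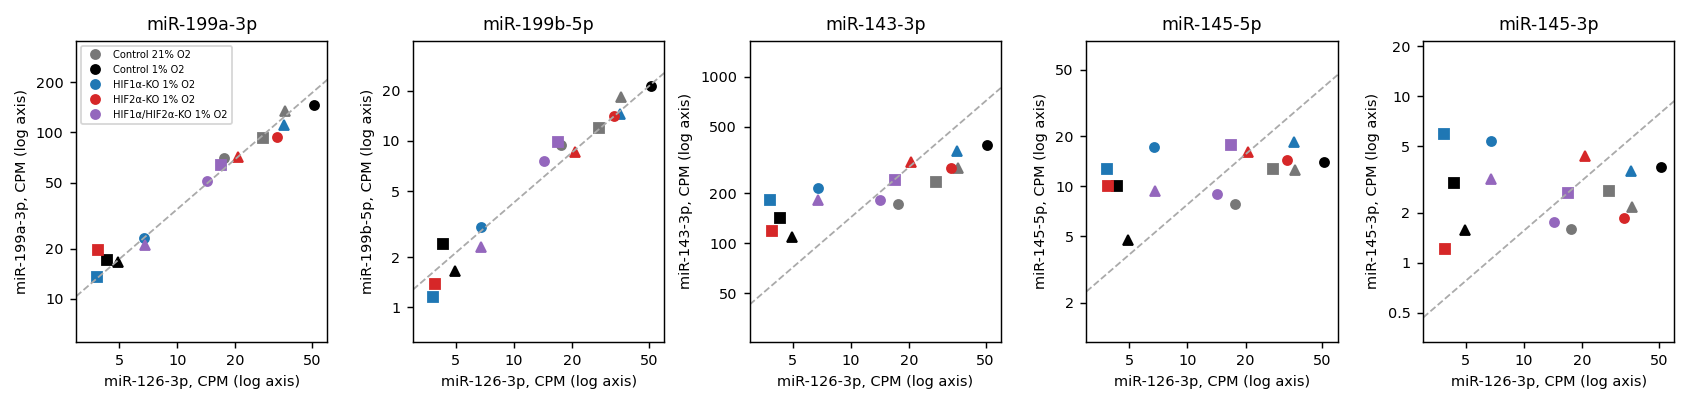
Level of 5 members against that of miR-126-3p in the 15 libraries (CPM, log axes; colours are groups; circles, squares and triangles are replicates 1, 2 and 3), with a dashed line at the median ratio. miR-199a-3p and miR-199b-5p stay near the line over the whole range, miR-143-3p lies above it in the libraries low in miR-126-3p, and miR-145-5p and miR-145-3p do not follow it.

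The spread within groups can be placed among all miRNAs tested, as a description, since it was the reason for the choice. The pooled SD within groups of log2(CPM + 0.5) had a median of 0.30 over the 562 miRNAs, and 90% of them were below 0.59. It was 1.38 for miR-199b-5p (rank 6 from the widest), 1.37 for miR-126-3p (rank 8), 1.26 for miR-199a-3p (rank 11) and 1.00 for miR-199a-5p (rank 20). It was 0.63 for miR-143-3p (rank 45), 0.55 for miR-126-5p (rank 66), 0.49 for miR-145-3p (rank 82) and 0.49 for miR-145-5p (rank 85). The miR-145 arms and miR-126-5p were thus below the level that 90% of miRNAs stay under. However, miR-126-5p had a mean of 0.363 CPM, so the added 0.5 CPM narrows its SD. Its rank therefore does not show how far it parts libraries. By the miR-145 arms, the set is not of a piece in the property it was picked for.

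**Figure D3:**
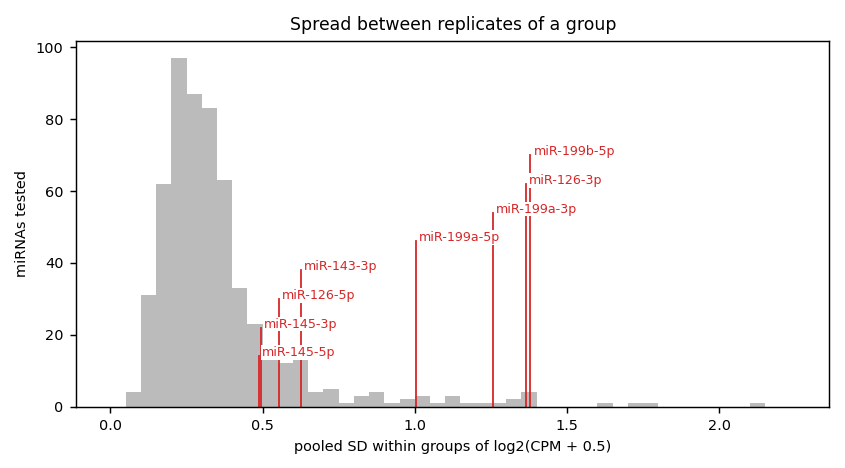
Histogram of the pooled SD within groups of log2(CPM + 0.5) over the 562 miRNAs tested, with the 8 members marked by red lines whose heights only separate the names. miR-126-3p and the miR-199 members lie between 1.00 and 1.38, and miR-145-5p and miR-145-3p at 0.49.

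The miRNAs most like each member were found as those outside the set with the smallest root mean square difference of centred log2(CPM + 0.5) over the 15 libraries. For miR-126-3p these were miR-199b-3p (0.18) and miR-200a-3p (0.29), against a median of 1.26 over all miRNAs tested. For miR-199a-5p they were miR-451a (0.14) and miR-199b-3p (0.29), for miR-199a-3p miR-199b-3p (0.02) and miR-451a (0.25), and for miR-199b-5p miR-199b-3p (0.21) and miR-200a-3p (0.29). The counts of miR-199b-3p are a fixed fraction of those of miR-199a-3p, so its nearness to that member is set by the counting. Its nearness to the other members repeats that of miR-199a-3p. miR-451a is a miRNA of red blood cells, and miR-200a-3p a miRNA of epithelia. The nearest to miR-143-3p were miR-142-5p (0.28), a miRNA of blood cells, and miR-375-3p (0.38), against a median of 0.64. miR-126-5p was nearest to miR-142-5p (0.31) and miR-148a-5p (0.33), with a median of 0.63. miR-145-5p was nearest to miR-1269a (0.28) and miR-146b-3p (0.29), with a median of 0.60, and miR-145-3p to miR-204-3p (0.42) and miR-487b-3p (0.44), with a median of 0.64. The lead over an average miRNA was therefore large for miR-126-3p and the miR-199 members and small for the miR-145 arms. Each median was close to the member's own root mean square deviation, which was 1.22 for miR-126-3p and 0.55 for miR-145-3p. This lead thus grows with the spread for which the set was chosen, and is no separate measure of likeness.

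The library with the most miR-126-3p was also the highest of its group for miR-199a-3p, miR-199a-5p and miR-199b-5p in 5 of 5 groups, for miR-143-3p in 4, for miR-145-5p in 3 and for miR-145-3p in 1. Of 554 tested miRNAs outside the set, 11 had the same highest library in all 5 groups, among them miR-199b-3p, miR-205-5p, miR-451a, miR-200a-3p, miR-200b-3p, miR-141-3p and miR-375-3p. Of these, miR-199b-3p only repeats miR-199a-3p, since its counts are a fixed fraction of those.

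Some markers of other cell types moved in the same libraries, and others did not. miR-205-5p, a miRNA of squamous epithelium, was at 19.0, 0.756 and 0.717 CPM in hypoxic control replicates 1 to 3 and at 1.56, 0.581 and 14.6 CPM in HIF1α-KO cells. miR-451a was at 18.7, 2.44 and 2.29 CPM and at 2.51, 2.08 and 14.96 CPM in the same libraries. Replicate 1 of hypoxic control and replicate 3 of HIF1α-KO cells were thus high for miR-205-5p and miR-451a, as for miR-126-3p and the miR-199 members. miR-200c-3p, from the same hairpin cluster as miR-141, was at 50.4, 53.9 and 41.1 CPM in hypoxic control and at 38.6, 34.5 and 41.9 CPM in HIF1α-KO cells and did not part them. miR-142-3p, a miRNA of blood cells, was lowest in hypoxic control replicate 1, at 1.13 CPM against 1.43 CPM in the highest library. It was also lowest in HIF1α-KO replicate 3, at 1.06 CPM against 1.38 CPM. miR-142-3p had 12 to 28 counts in hypoxic control and 11 to 24 in HIF1α-KO libraries, so these orders may be within counting error. The other arm of its hairpin, miR-142-5p, went the other way. It was highest in hypoxic control replicate 1, at 3.20 CPM (34 counts), and in HIF1α-KO replicate 3, at 2.22 CPM (23 counts).

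Over the whole lists, the 8 blood miRNAs summed to 4.93 to 24.6 CPM in hypoxic control, 4.50 to 19.0 in HIF1α-KO, 4.77 to 16.2 in HIF2α-KO, 5.74 to 9.63 in HIF1α/HIF2α-KO and 12.02 to 18.3 CPM in normoxic control libraries. The largest part of this sum was miR-451a, while miR-486-5p, also a miRNA of red blood cells, was at 0 in 14 of 15 libraries and had 1 count in the other. The 6 epithelial miRNAs analysed, of 7, summed to 47.7 to 121 CPM in hypoxic control, 42.5 to 91.6 in HIF1α-KO, 49.3 to 98.4 in HIF2α-KO, 39.4 to 64.3 in HIF1α/HIF2α-KO and 72.0 to 97.7 CPM in normoxic control libraries. The highest library of the epithelial list was the highest for miR-126-3p in all 5 groups, and that of the blood list in 4. The part of blood or epithelial RNA in the levels of the members was not tested.

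The summed levels of the remaining lists did not follow miR-126-3p, and this holds also for the list nearest in kind to the members. The 14 other vascular and stromal miRNAs summed to 6242 to 7226 CPM in hypoxic control, 7041 to 7777 in HIF1α-KO, 5843 to 7652 in HIF2α-KO, 6589 to 7698 in HIF1α/HIF2α-KO and 6324 to 6695 CPM in normoxic control libraries, and differed 1.06-fold to 1.31-fold within groups. Their lowest sums were in hypoxic control replicate 1 and HIF1α-KO replicate 3, the libraries of those groups with the most miR-126-3p. There miR-10b-5p, miR-140-5p, miR-155-5p and miR-218-5p were each lowest of their group. In contrast, miR-140-3p, miR-143-5p, miR-152-3p, miR-195-5p and miR-199b-3p were each highest there, so the sum does not stand for each miRNA of the list. Among them, miR-199b-3p repeats the member miR-199a-3p by its counts. The 5 striated muscle miRNAs analysed, of 7, summed to 7.72 to 28.2 CPM in hypoxic control and 10.7 to 48.5 CPM in HIF1α-KO libraries, and there the lowest sums were in hypoxic control replicate 1 and HIF1α-KO replicate 3. They summed to 3.19 to 18.3 CPM in HIF2α-KO, 21.5 to 48.5 in HIF1α/HIF2α-KO and 1.92 to 8.06 CPM in normoxic control libraries. The 6 neural miRNAs analysed, of 7, summed to 6466 to 10432 CPM in hypoxic control, 3646 to 8841 in HIF1α-KO, 5636 to 9789 in HIF2α-KO, 7525 to 8201 in HIF1α/HIF2α-KO and 5886 to 7154 CPM in normoxic control libraries, with hypoxic control replicate 1, HIF1α-KO replicate 3 and HIF2α-KO replicate 1 lowest in their groups. The 2 liver miRNAs listed as markers were not analysed here. The 5 miRNAs that are abundant in glioma cell lines summed to between 206973 and 290434 CPM and differed at most 1.16-fold within a group. Most of this sum was miR-21-5p, with a mean of 203563 CPM. Within the list, miR-222-3p differed 1.67-fold between HIF2α-KO libraries and miR-10a-5p 1.81-fold between HIF1α-KO libraries.

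**Figure D4:**
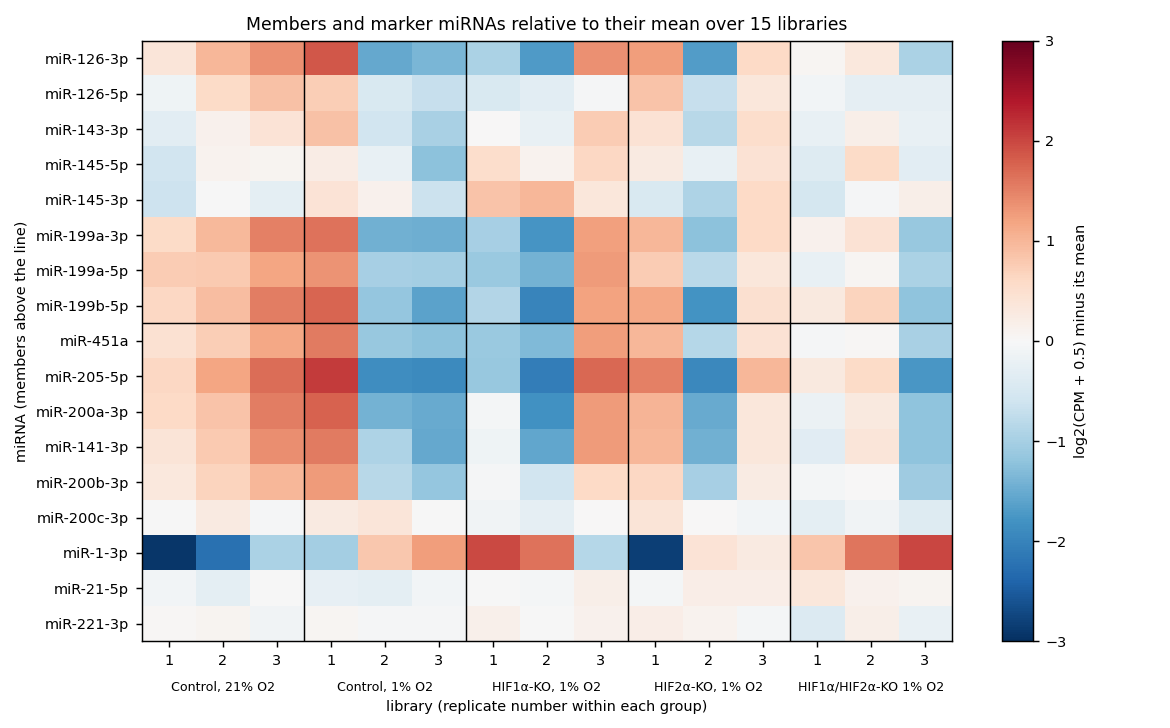
Centred log2(CPM + 0.5) of the 8 members (above the line) and of 9 marker miRNAs (below it) in each library, with red above and blue below the mean over the 15 libraries. miR-451a, miR-205-5p, miR-200a-3p, miR-141-3p and miR-200b-3p share the columns of miR-126-3p and the miR-199 members, while miR-200c-3p, miR-21-5p and miR-221-3p stay near their means.

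The design asks whether losing HIF1α, HIF2α or both, or the oxygen level, changed a miRNA. None of the 8 members passed an adjusted p of 0.05 (edgeR quasi-likelihood test, Benjamini-Hochberg over 562 miRNAs) in any of the 5 comparisons, and none had an unadjusted p under 0.05. DESeq2 and limma also called 0 members in each comparison. In bulk RNA, fewer cells of a type and less RNA per cell cannot be told apart. The comparisons of the knockouts with control cells share the 3 hypoxic control libraries, and so replicate 1 of that group enters each of them.

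In HIF1α-KO against hypoxic control cells, 0 of 8 members were called, where 1.25% of all miRNAs tested were. The members nearest to the threshold were miR-145-5p, with a log2 fold change of 0.71 (SE 0.36, adjusted p = 0.457, edgeR; group means 16.1 ± 2.99 and 9.59 ± 4.62 CPM), and miR-145-3p, with 0.82 (SE 0.42, adjusted p = 0.457, edgeR). Their 95% intervals ran from -0.06 to 1.48 and from -0.08 to 1.72. Both arms thus had higher means in the knockout, with intervals that just reach 0. For miR-126-3p the log2 fold change was -0.45 (SE 0.97, adjusted p = 0.942, edgeR), with an interval of -2.53 to 1.64, that is, from 0.173-fold to 3.11-fold. The log2 fold changes of the 8 members had a median of -0.27, against -0.05 over all miRNAs tested. No member had groups whose CPM did not overlap, where 20.3% of all miRNAs tested did. Without hypoxic control replicate 1, the log2 fold change of miR-126-3p was 1.69, without HIF1α-KO replicate 2 it was 0.05 and without HIF1α-KO replicate 3 it was -1.93, so a single library on either side set its direction or size.

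In HIF2α-KO against hypoxic control cells, 0 of 8 members were called, and 0.0% of all miRNAs tested (0 by edgeR, limma and DESeq2, with 86 miRNAs at an unadjusted p under 0.05 in edgeR). miR-145-5p had a log2 fold change of 0.64 (SE 0.36, adjusted p = 0.437, edgeR), with an interval of -0.13 to 1.42. miR-126-3p, at 0.08 (SE 0.96), and miR-199b-5p, at 0.08 (SE 1.01), were near 0 with intervals of about 2 on the log2 scale to either side. The log2 fold change of miR-126-5p was 1.10 (SE 1.03), but it rests on 0 to 13 counts per library and on the prior count of the fit. The median over the members was 0.16, against -0.01 over all miRNAs tested. The groups overlapped for all 8 members, where 16.9% of all miRNAs tested did not overlap. Without hypoxic control replicate 1, miR-126-3p was at 2.17, and without HIF2α-KO replicate 1 at -0.54. It was also negative without hypoxic control replicate 2 (-0.41), hypoxic control replicate 3 (-0.37) and HIF2α-KO replicate 3 (-0.03).

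In HIF1α/HIF2α-KO against hypoxic control cells, 0 of 8 members were called, where 5.87% of all miRNAs tested were. The log2 fold changes ran from -0.71 (miR-126-3p, SE 0.97, adjusted p = 0.712, edgeR) to 0.26 (miR-145-5p, SE 0.36, adjusted p = 0.712, edgeR), with a median of -0.38, against -0.02 over all miRNAs tested. The groups overlapped for all 8 members, where 30.1% of all miRNAs tested did not overlap. The interval of miR-126-3p ran from -2.80 to 1.38, so a fall to 0.144-fold and a rise to 2.60-fold both lie within it. Without hypoxic control replicate 1 the value was 1.40.

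In HIF2α-KO against HIF1α-KO cells, 0 of 8 members were called, where 1.07% of all miRNAs tested were. miR-145-3p had a log2 fold change of -0.84 (SE 0.43, adjusted p = 0.327, edgeR), with an interval of -1.76 to 0.08 and group means of 2.47 ± 1.66 and 4.96 ± 1.24 CPM. miR-145-5p was at -0.07 (SE 0.36), so the arms of this hairpin had different values, although the difference between them was not tested. The median over the members was 0.43, against 0.05 over all miRNAs tested. The groups overlapped for all 8 members, where 21.2% of all miRNAs tested did not overlap. miR-126-3p had a log2 fold change of 0.53 (SE 0.97), which was -0.14 without HIF2α-KO replicate 1.

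In hypoxic against normoxic control cells, 0 of 8 members were called, and 0.0% of all miRNAs tested (0 by edgeR, limma and DESeq2, with 35 miRNAs at an unadjusted p under 0.05 in edgeR). All members but miR-145-3p had negative log2 fold changes, such as -0.50 for miR-126-3p (SE 0.96), -0.78 for miR-199a-3p (SE 0.88), -0.77 for miR-199a-5p (SE 0.74) and -0.16 for miR-143-3p (SE 0.44). Hypoxic control replicate 1 was above the highest normoxic library for miR-126-3p and replicates 2 and 3 were below the lowest, so the hypoxic libraries lay on both sides of the normoxic ones. The groups overlapped for all 8 members, where 17.6% of all miRNAs tested did not overlap. The median over the members was -0.62, against 0.01 over all miRNAs tested. Without hypoxic control replicate 1 the log2 fold change was -2.60 for miR-126-3p, -2.61 for miR-199a-3p, -2.06 for miR-199a-5p and -2.75 for miR-199b-5p. Without hypoxic control replicate 2 it was -0.03, -0.35, -0.40 and -0.28 for the same miRNAs, and without replicate 3 it was -0.06, -0.36, -0.41 and -0.26.

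**Figure D5:**
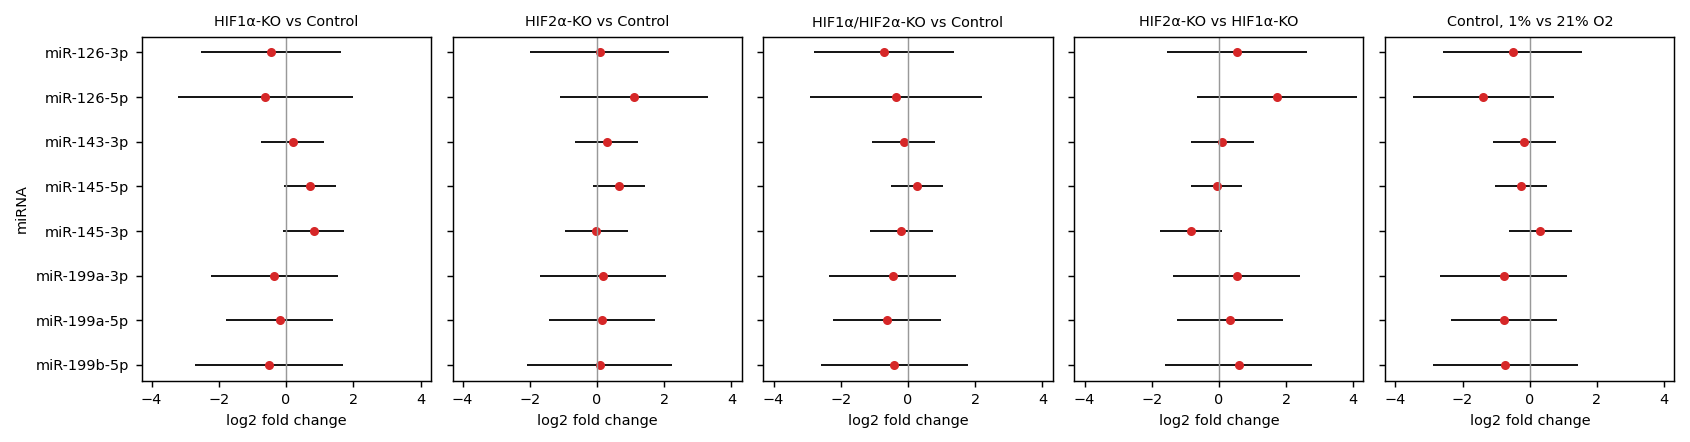
Log2 fold change (red points) of the 8 members with 95% intervals (black lines) in the 5 comparisons, from the edgeR fit of all 15 libraries. All 40 intervals cover 0, and those of miR-143-3p and the miR-145 arms are narrower than those of miR-126 and the miR-199 members.

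Of 14 other vascular and stromal miRNAs, of which miR-10b-5p is also among the glioma miRNAs above, 12 were tested, and 0 were called in either direction in each of the 5 comparisons. The smallest adjusted p was 0.101, for miR-218-5p in HIF1α/HIF2α-KO against hypoxic control cells (edgeR). Their medians, from -0.13 to 0.12 on the log2 scale, were nearer to 0 than those of the members. miR-143-5p, the other arm of miR-143, had 8 to 37 counts per library and a log2 fold change of -1.07 in HIF1α/HIF2α-KO cells (SE 0.49, adjusted p = 0.192, edgeR), and miR-143-3p had 71.9 to 256 times its count. miR-199b-3p gave the same log2 fold changes as miR-199a-3p to within 0.01, as its counts are a fixed fraction of those. miR-214-5p, the other arm of the hairpin of miR-214-3p, had 1 count in 1 library, hypoxic control replicate 1, and 0 in the others.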

How the data were processed

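miRNA-Seq was measured in 15 U87-MG libraries. The values the authors deposited are raw, unnormalized read counts for mature miRNAs. The submitters' processing notes name HISAT2, StringTie and DESeq2 without roles. Genome build and the counting of reads that match several hairpins are not given in the sources used here. Groups and replicate numbers came from the sample labels.

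Counts were fitted in edgeR 4.0.16 (R 4.3.3; TMM, filterByExpr, a mean per group, all 15 libraries), and contrasts were tested by quasi-likelihood, with p-values adjusted by Benjamini-Hochberg and a threshold of 0.05. Intervals are log2 fold changes ± t quantile × SE. The fits were tested on simulated data. No replicates were copies of one another (smallest chi-square per degree of freedom 49.3).

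The text names all members, the 2 nearest miRNAs of each, list members that share a hairpin or cluster with a member, and miR-210-3p as a check. Individual markers were named after their values were seen. The members and lists were chosen with earlier results of these data known. Alternatives were DESeq2 1.42.0, limma 3.58.1, other scalings and filters, the groups compared alone, a replicate block, each library left out, and, after the data were seen, halved miR-199a counts.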

Additional observations from a re-analysis of the deposited data

How the results depend on the processing

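The count of members called stayed at 0 in every comparison under all alternatives, including each library left out. Of 350 log2 fold changes recomputed under alternatives that keep all replicates, 340 kept their direction and 10 turned it, and none passed the threshold. miR-126-5p was not tested with at least 10 counts in every library or with the groups compared alone. With total counts, HIF2α-KO against hypoxic control gave -0.056 for miR-126-3p and -0.060 for miR-199b-5p, and HIF2α-KO against HIF1α-KO gave -0.089 for miR-143-3p. Total counts moved the median of all miRNAs in these comparisons from -0.01 to -0.15 and from 0.05 to -0.13. With limma on quantile-normalized values, HIF1α/HIF2α-KO against hypoxic control gave 0.0050 for miR-143-3p, 0.099 for miR-126-3p, 0.094 for miR-199b-5p and 0.15 for miR-199a-3p, and HIF2α-KO against HIF1α-KO gave -0.047 for miR-143-3p. With the replicate block, HIF1α/HIF2α-KO against hypoxic control gave 0.16 for miR-199b-5p and 0.013 for miR-199a-3p. The cause was not tested. The replicate numbers did not pair the libraries, since the deviations of libraries with the same number correlated between -0.64 and 0.61, and in no comparison did all 3 correlations exceed 0.1. The block changed no member's call. It left 6, 0, 33, 3 and 0 miRNAs called over all, in the order of comparisons above, against 7, 0, 33, 6 and 0 without it.

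The direction of many members turned when a single library was left out. The lowest and highest log2 fold changes were as follows. In HIF1α-KO against hypoxic control cells they were -0.11 and 0.98 for miR-143-3p, -1.93 and 1.69 for miR-126-3p, -1.58 and 1.14 for miR-199a-5p, -2.04 and 1.54 for miR-199b-5p, -1.71 and 1.5 for miR-199a-3p and -1.17 and 1.47 for miR-126-5p. In HIF2α-KO against hypoxic control cells they were -0.78 and 0.28 for miR-145-3p, -0.012 and 1.04 for miR-143-3p, -0.54 and 2.17 for miR-126-3p, -0.24 and 1.43 for miR-199a-5p, -0.59 and 2.09 for miR-199b-5p and -0.27 and 1.99 for miR-199a-3p. In HIF1α/HIF2α-KO against hypoxic control cells they were -0.44 and 0.053 for miR-145-3p, -0.063 and 0.64 for miR-145-5p, -0.41 and 0.64 for miR-143-3p, -1.17 and 1.40 for miR-126-3p, -0.98 and 0.69 for miR-199a-5p, -0.85 and 1.64 for miR-199b-5p, -0.88 and 1.38 for miR-199a-3p and -0.93 and 1.71 for miR-126-5p. In HIF2α-KO against HIF1α-KO cells they were -0.31 and 0.053 for miR-145-5p, -0.24 and 0.37 for miR-143-3p, -0.14 and 1.98 for miR-126-3p, -0.13 and 1.70 for miR-199a-5p and -0.13 and 2.09 for miR-199b-5p. In hypoxic against normoxic control cells they were -0.62 and 0.042 for miR-145-5p and -0.92 and 0.13 for miR-143-3p. The values of miR-126-5p, at 0 to 16 counts, rest on the prior count of the fit. The count of all miRNAs called differed by more than 1.5 times from that without the change: in HIF1α-KO against hypoxic control cells, 12 by DESeq2, 11 with at least 10 counts in every library and 0 with the groups compared alone in edgeR (67 at an unadjusted p under 0.05), against 7. In HIF2α-KO against hypoxic control it was 11 without a filter, against 0. In HIF1α/HIF2α-KO against hypoxic control it was 60 by DESeq2, 56 with at least 10 counts in every library and 50 with total counts, against 33. In HIF2α-KO against HIF1α-KO it was 20 by DESeq2, 17 with at least 10 counts in every library, 12 with total counts, 14 without a filter, 3 with the replicate block and 0 with the groups compared alone in edgeR (64 at an unadjusted p under 0.05), against 6. In hypoxic against normoxic control it was 15 without a filter, against 0. Leaving out a library moved these counts as well. In HIF1α-KO against hypoxic control it was 2 without HIF1α-KO replicate 1, HIF1α-KO replicate 2 or hypoxic control replicate 1, and 4 without HIF1α-KO replicate 3. In HIF2α-KO against hypoxic control it was 10 without HIF2α-KO replicate 1 and 1 without hypoxic control replicate 1. In HIF1α/HIF2α-KO against hypoxic control it was 15 without HIF1α/HIF2α-KO replicate 1, and 18 without its replicate 3 or hypoxic control replicate 1 or 2. In HIF2α-KO against HIF1α-KO it was 18 without HIF1α-KO replicate 3, 3 without HIF2α-KO replicate 2 and 2 without HIF1α-KO replicate 2. The shares of all miRNAs called that stand beside the members move with these counts. With 3 libraries per group and SEs of 0.74 to 1.22 for miR-126 and the miR-199 members, the 95% intervals of miR-126-3p reached from 0.144-fold to 6.10-fold over the comparisons.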
